A study of Mus musculus with 2 samples.

Results

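Barx1-positive cells of the foregut mesenchyme at embryonic day (E) 9.5 are the mouse cells described here. They were chosen by their own transcripts: a cell of the posterior second heart field at E9.5 was a member when it held 2 or more unique molecular identifiers (UMIs, counted transcripts) of Barx1 and 2 or fewer of Wnt2. The rule found 79 cells among 418 posterior cells, 533 cells at E9.5 and 1500 cells in the whole series. They were set against the 174 other posterior cells with 2 or more UMIs of Foxf1, called the other Foxf1 cells below. The rule itself divides these into 85 cells with 3 or more Wnt2 UMIs (Wnt2-high cells) and 89 cells with fewer, which are called cells low in both. Of these 89, 34 had 1 or 2 Wnt2 UMIs, at 20.6 CPM over the 89 (CPM are counts scaled to the same total in each group), and 12 had 1 Barx1 UMI.

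Barx1 is a homeobox transcription factor of the mesenchyme around the embryonic stomach, and in mouse stomach it is needed for the epithelium above it to take a gastric rather than an intestinal course, in part through the secreted Wnt antagonists Sfrp1 and Sfrp2. Foxf1 is a forkhead factor of the mesoderm that lines the gut tube and answers Hedgehog ligands from the endoderm. Wnt2 and Tbx5 mark the neighbouring cardiopulmonary mesoderm, from which lung mesenchyme and parts of the cardiac inflow arise, and retinoic acid made by Aldh1a2 acts on both the foregut and the venous pole of the heart.

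The study profiled Osr1+ cells of wild-type mouse second heart field by 10x droplet sequencing, with 1 sample for each of the stages E9.5 and E10.5. A number at the end of each barcode gives the dissected position (anterior, middle or posterior, and also outflow tract in the later stage). How many embryos were pooled is not given in the sources used here. How the Osr1+ cells were obtained is likewise not given; every cell in the tables of both stages had at least 1 Osr1 UMI, with 173 CPM of Osr1 in Barx1-positive cells and 205 CPM in the other Foxf1 cells. Because each stage is 1 sample and all members come from 1 library, cells are not replicates, no test was made and no p-value is given: summed counts are compared with exact 95% intervals that cover counting error only.

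Members held 10731 to 77223 UMIs (median 30835, 2681277 in all), and the other Foxf1 cells had a median of 30967 (5871964 in all), so depth was close. The median number of genes per cell was 5495 in members and 5485.5 in the other Foxf1 cells, and mitochondrial counts were 2.06% and 1.91% of the total. Scrublet marked 0 members and 4 other Foxf1 cells as doublets, all 4 of them Wnt2-high. No barcode was shared between positions at E9.5 or between stages; at E10.5, 2 cells shared 1.

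Barx1 (chr13:48662998-48666507, mm10) had 2 to 50 UMIs per member with a median of 10, and 403 CPM in the summed members against 14.5 CPM in the other Foxf1 cells. Wnt2 (chr6:17988940-18030585) was seen in 24 of the 79 members, at 9.70 CPM against 192 CPM. These values chose the cells and show nothing further. Near the limits of the rule, 8 members had exactly 2 Barx1 UMIs, and 18 posterior cells with 1 Barx1 UMI and a permitted Wnt2 count fell outside. Another 14 cells with 2 or more Barx1 UMIs were not members because they held 3 to 32 Wnt2 UMIs. Of these 14, 8 stood among the Wnt2-high comparison cells, and Scrublet marked 2 of the 14 as doublets. In all, 22 of the 85 Wnt2-high cells had a Barx1 UMI, at 21.5 CPM.

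**Figure D1:**
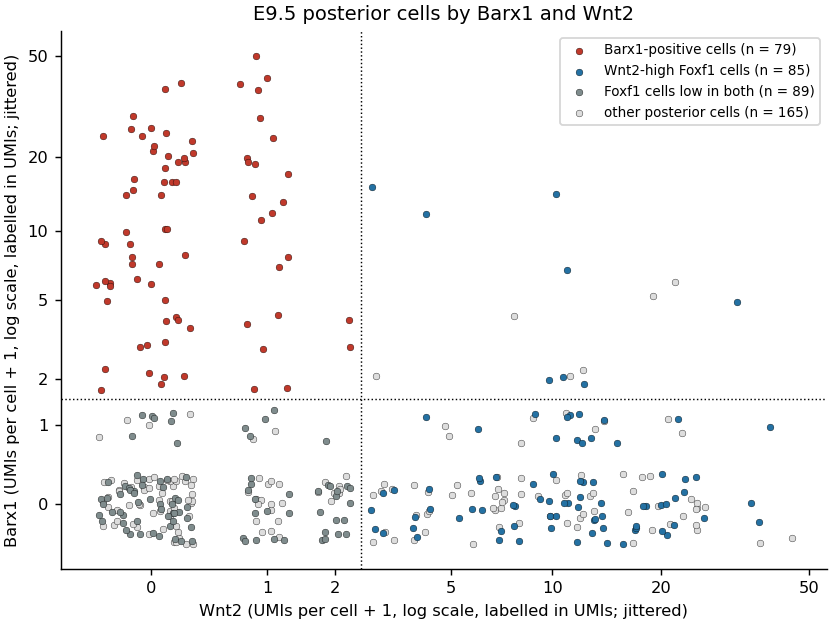
Barx1 against Wnt2 in each E9.5 posterior cell (both axes in UMIs per cell plus 1 on a log scale, jittered; dotted lines are the limits of the rule). The 79 Barx1-positive cells fill the upper left with 2 to 50 Barx1 UMIs, and 14 cells lie past both limits in the upper right.

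The label was checked against markers. Foxf1 (chr8:121084386-121088144), which the rule did not ask of a member, had 2 to 41 UMIs (median 12) in members, so all 79 of 79 reached 2 UMIs (95.4 to 100% by the exact Clopper-Pearson interval), whereas 174 of the 339 remaining posterior cells did (51.3%, 45.9 to 56.8%). Its summed level was 374 CPM in members and 315 CPM in the other Foxf1 cells, a level for which the comparison cells were themselves chosen. Of the other stomach or foregut mesenchyme markers listed, none was at least 2-fold higher: Tcf21, a helix-loop-helix factor of splanchnic mesoderm, stood at 34.3 CPM in members and 55.3 CPM in the other Foxf1 cells, Nkx2-3 had 3 counts in members and 0 in the other Foxf1 cells, and Foxf2, Foxl1 and Nkx6-1 were lower. Nkx3-2 was not analysed here. By these markers the label rests on Foxf1 and on Barx1, which chose the cells, and not on the other stomach markers.

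Markers of other cell types were at or near 0 for some types and present for others. Among the epithelial markers, Cdh1 and Sox2 were at 0 in members and Epcam was at 9.32 CPM; the 8 markers summed to 353 CPM in members and 387 CPM in the other Foxf1 cells, most of it Krt8 and Krt18, and the median per cell was 311 CPM in members and 259 CPM in the other Foxf1 cells. Cardiomyocyte markers summed to 383 CPM in members (34.4 to 1374 CPM per cell) and 845 CPM in the other Foxf1 cells (0 to 20956 CPM per cell), with 1224 CPM in Wnt2-high cells and 327 CPM in cells low in both, against 6580 CPM in the remaining posterior cells; Nppa was at 0 in members. The median cell had 311 CPM of these markers in members and 292 CPM in the other Foxf1 cells, and Myl7 alone was seen in 78 of 79 members and 169 of 174 other Foxf1 cells, at 223 and 287 CPM. Smooth muscle markers summed to 26.1 CPM in members and 246 CPM in the other Foxf1 cells, with Myh11 at 0 in members. Mesothelial or proepicardial markers summed to 39.9 CPM in members and 53.3 CPM in the other Foxf1 cells, but the median per cell was 30.6 and 0 CPM. Wt1 was seen in 33 of 79 members and 28 of 174 other Foxf1 cells, at 18.6 and 12.9 CPM. Tbx18 went the other way, at 2.98 and 18.9 CPM, and Upk1b was at 0 in members. Endothelial (10.4 and 28.4 CPM), liver (10.1 and 44.4 CPM) and leukocyte markers (0.373 and 0.511 CPM) were at a median of 0 per cell in both, and erythroid markers were at 77.6 and 72.7 CPM, in each case with the Barx1-positive cells first. Kdr among the endothelial and Afp and Ttr among the liver markers were lower in members. Single comparison cells held 149 of the 177 Ttr counts, 43 of the 58 Afp counts and 19 of the 73 Kdr counts of the other Foxf1 cells. By the count of cells with 3 or more markers of another type at 2 or more UMIs each, 34 of 79 members and 64 of 174 other Foxf1 cells qualified, mostly through cardiomyocyte markers (30 and 59 cells).

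Such cells were posterior. At E9.5 the rule was met by 1 of 54 anterior cells, 0 of 61 middle cells (which, at 3 counts of the total, allows a share of up to 4.92%) and 79 of 418 posterior cells (18.9%, 15.3 to 23.0%). Any Barx1 UMI was seen in 5 of 54 anterior, 1 of 61 middle and 134 of 418 posterior cells, at 5.40, 0.624 and 88.1 CPM. Within the posterior library, 17 cells with 2 or more UMIs each of Epcam and Cdh1, which serve as cells that should lack Barx1, had a Barx1 UMI in 1 case (5.88%; median depth 33733 UMIs).

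The promoters of 3 genes are shown because the results turn on them. Barx1 chose the cells. Isl1 was a transcription factor of the cardiac field that stood higher in them than in the other Foxf1 cells together and followed Barx1 among them. Aldh1a2 was a signalling enzyme that was lower in them and ran against Barx1 among them. The sequences are RefSeq's on GRCm38.p6, 250 bases before to 50 after the start site, 5′ to 3′ on the gene's strand. Barx1 is at chr13:48662786-48663085 (plus strand), Isl1 at chr13:116309639-116309938 (minus strand) and Aldh1a2 at chr9:71215539-71215838 (plus strand). Capitals mark the GC box GGGCGG and the CCAAT box, searched on both strands.
Barx1: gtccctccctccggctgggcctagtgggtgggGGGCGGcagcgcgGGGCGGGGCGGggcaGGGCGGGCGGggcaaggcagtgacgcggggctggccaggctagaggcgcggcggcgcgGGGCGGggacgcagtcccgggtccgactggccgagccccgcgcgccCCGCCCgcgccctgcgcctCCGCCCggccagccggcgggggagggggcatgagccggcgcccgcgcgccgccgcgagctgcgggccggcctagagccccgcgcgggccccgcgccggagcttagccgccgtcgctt
Isl1: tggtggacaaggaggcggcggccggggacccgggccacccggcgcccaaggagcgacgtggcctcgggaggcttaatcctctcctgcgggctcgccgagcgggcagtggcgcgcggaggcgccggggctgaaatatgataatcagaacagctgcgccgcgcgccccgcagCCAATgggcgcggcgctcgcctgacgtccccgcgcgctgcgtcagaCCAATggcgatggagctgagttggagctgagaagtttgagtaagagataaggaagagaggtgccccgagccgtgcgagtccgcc
Aldh1a2: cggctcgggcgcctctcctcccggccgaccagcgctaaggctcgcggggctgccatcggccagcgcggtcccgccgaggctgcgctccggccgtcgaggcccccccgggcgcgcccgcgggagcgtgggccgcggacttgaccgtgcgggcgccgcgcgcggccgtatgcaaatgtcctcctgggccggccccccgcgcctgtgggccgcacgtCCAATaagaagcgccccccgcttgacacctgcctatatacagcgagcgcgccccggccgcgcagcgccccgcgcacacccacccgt
The Barx1 window held 8 GC boxes, some overlapping each other, and no CCAAT box; the Isl1 window held 2 CCAAT boxes and the Aldh1a2 window 1, with no GC box in either. Across 32817 promoters, 35.6% held a GC box and 37.4% a CCAAT box. None of the 3 windows held the homeodomain core TAATTA (5.30% of promoters), the forkhead motif TGTTTAC (3.65%), the GLI motif GACCACCCA (0.253%) or the nuclear receptor half-site AGGTCA (16.3%). A match describes the letters of the window and shows no binding.

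A gene was counted as higher or lower when it had at least 50 counts in the Barx1-positive and other Foxf1 cells together, differed at least 2-fold with 5 CPM added to each side, and had a counting interval of the ratio that excluded 1. Of 8818 genes, 37 were higher in Barx1-positive cells (0.42%) and 129 were lower (1.46%), 1.88% in either direction, while the median log2 fold over all of them was 0.01. Set against the 2 kinds of Foxf1 cell separately, 35 were higher (0.436%) and 132 lower (1.65%) than in Wnt2-high cells (2.08% either way), and 52 higher (0.69%) and 88 lower (1.17%) than in cells low in both (1.86% either way). Against both kinds, 21 genes were higher, Igfbp3, Ecm1, Hoxc4, Hoxc5, Ifitm1, Fgf10, Etv1 and Notch2 among them. Lower against both were 39, with Tbx5, Aldh1a2, Crabp2, Nkx6-1, Foxl1, Foxc1, Foxc2, Sox9, Col1a1, Cxcl12, Wnt5a and Irx3 among them. A call against both kinds needed enough counts in each contrast, which 8019 genes had against Wnt2-high cells and 7533 against cells low in both. The genes with enough counts in both contrasts were not counted here. No share can therefore be set beside the 21 and the 39, which are a description only.

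**Figure D2:**
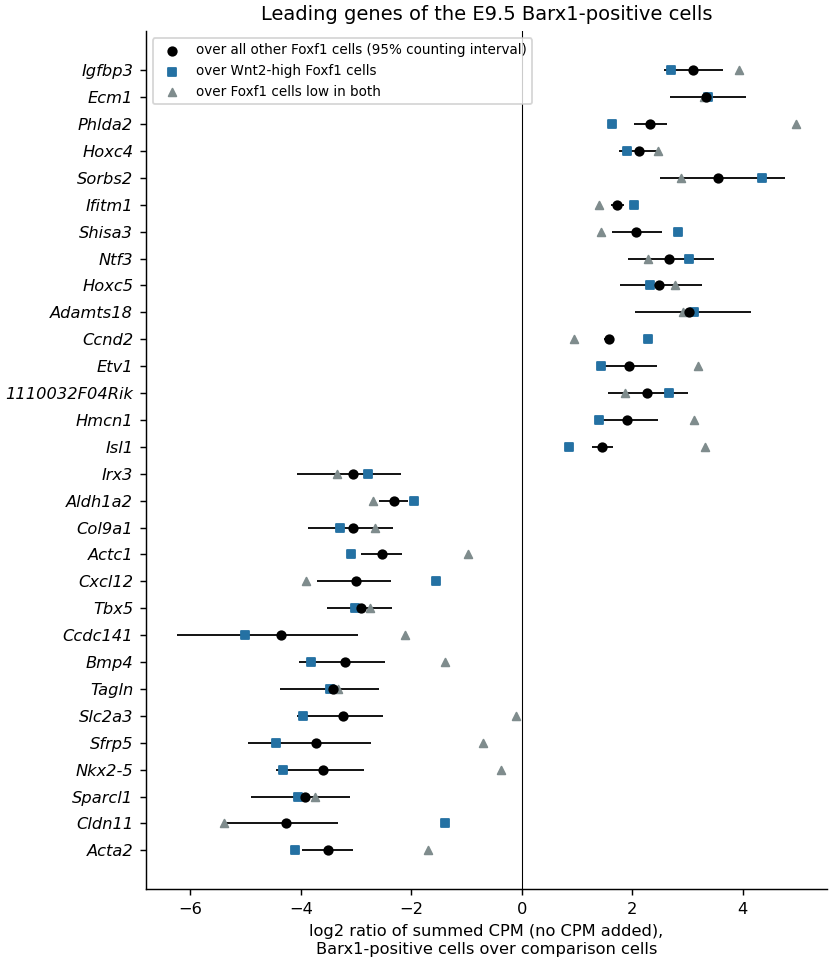
Ratio of summed CPM, Barx1-positive cells over comparison cells, on a log2 axis with no CPM added, for the 15 genes with the largest and the 15 with the smallest log2 fold. Circles with bars are ratios over all 174 other Foxf1 cells with 95% counting intervals, squares over the 85 Wnt2-high cells and triangles over the 89 cells low in both; Tbx5 and Sparcl1 lie low against both kinds, whereas Isl1 lies far from 0 mainly against cells low in both.

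Igfbp3, which binds insulin-like growth factors outside the cell (chr11:7206086-7213923), had 0 to 9 UMIs per member (median 1) and 0 to 8 in the other Foxf1 cells (median 0). Its summed level was 55.2 CPM in members and 6.47 CPM in the other Foxf1 cells, a ratio of 8.53 (5.94 to 12.5). It was seen in 47 of 79 members (59.5%), 20 of 174 other Foxf1 cells (11.5%) and 4 of the 17 Epcam and Cdh1 cells (23.5%), and in 34.2%, 4.19% and 5.88% after each cell was thinned to 10000 UMIs. Ecm1, an extracellular matrix glycoprotein, was at 39.5 CPM in members and 3.92 CPM in the other Foxf1 cells, a ratio of 10.1 (6.38 to 16.6), and was about as low in both kinds of Foxf1 cell (3.83 CPM Wnt2-high, 4.04 CPM low in both). Shisa3, of a family first known in Xenopus for holding back Wnt and FGF receptors, was at 45.9 CPM in members and 10.9 CPM in the other Foxf1 cells. Ntf3, the neurotrophin that signals through TrkC, was at 21.6 CPM in members and 3.41 CPM in the other Foxf1 cells, a ratio of 6.35 (3.76 to 11.1). Adamts18, a secreted protease, was at 15.3 and 1.87 CPM in these cells and was under 2-fold once cells were thinned (log2 fold 0.72), as was the matrix gene Hmcn1 (27.97 and 7.49 CPM, with a log2 fold of 0.98 when thinned).

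The higher genes also included a cyclin and an imprinted growth gene. Ccnd2, the G1 cyclin D2, had 3 to 137 UMIs per member (median 30) and 0 to 68 in the other Foxf1 cells (median 7), so the distributions overlapped while the members' lowest cell still held transcripts. It was at 1077 CPM in members and 363 CPM in the other Foxf1 cells, a ratio of 2.96 (2.80 to 3.14), with 220 CPM in Wnt2-high cells and 559 CPM in cells low in both; against the last it stayed under 2-fold (log2 fold 0.94). Ifitm1, an interferon-induced membrane protein expressed in early mesoderm, was seen in every member at 1 to 46 UMIs (median 16) and at 0 to 48 (median 3) in the other Foxf1 cells. Its sums were 516 and 156 CPM, and it was also present in the Epcam and Cdh1 cells (320 CPM). Phlda2, an imprinted growth restrictor best known from placenta, was at 113 CPM in members and 22.5 CPM in the other Foxf1 cells, but 1 member alone held 80 of its 302 counts. Sorbs2, an actin adaptor, was at 17.9 and 1.53 CPM, a ratio of 11.7 (5.67 to 27.1). The S phase list and the G2 and M phase list, 20 genes each, held 0 higher and 0 lower genes and had medians of 0.02 each; with Wnt2 of 0 UMIs required of members the G2 and M median was −0.26, and −0.23 when the 24 members with 1 or 2 Wnt2 UMIs were left out rather than moved to the comparison.

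Transcription factors of the foregut mesenchyme went both ways. Of 28 listed regulators, 27 were measured and 22 had enough counts: 2 were higher (Hlx and Gata4), 6 were lower (Foxf2, Foxl1, Nkx2-5, Nkx6-1, Sox9 and Hand1), and the median log2 fold was −0.21. Hlx, a homeobox gene of visceral mesenchyme needed for liver and gut growth in mouse, was at 61.5 CPM in members and 23.8 CPM in the other Foxf1 cells, a ratio of 2.58 (2.05 to 3.26), and it was past 2-fold against Wnt2-high cells (17.7 CPM) but not against cells low in both (32.3 CPM, log2 fold 0.84). Gata4, a zinc finger factor of heart and foregut, had 0 to 20 UMIs per member (median 4) and 0 to 11 (median 1) in the other Foxf1 cells. It was at 136 CPM in members, 94.6 CPM in Wnt2-high cells and 19.4 CPM in cells low in both, so it was past 2-fold against cells low in both and not against Wnt2-high cells (log2 fold 0.50). Unlike Gata4, Gata6 (115 CPM in members, 168 and 53.3 CPM) and Gata5 (45.1 CPM in members, 109 and 14.5 CPM) lay between the Wnt2-high cells and the cells low in both. Foxl1, a forkhead gene of gut mesenchyme downstream of Hedgehog, was at 4.10 CPM in members and 21.1 CPM in the other Foxf1 cells, a ratio of 0.194 (0.0945 to 0.360). Nkx6-1, a homeobox gene also known from foregut mesenchyme, was seen in 3 of 79 members, 46 of 174 other Foxf1 cells and 0 of the 17 Epcam and Cdh1 cells, at 3.73 CPM in members and 21.3 CPM in the other Foxf1 cells. Sox9, a factor of cartilage and airway mesenchyme, was at 5.97 and 32.5 CPM. Meis2 and Meis1, homeobox partners of Hox proteins, were at 314 and 194 CPM in members and 202 and 142 CPM in the other Foxf1 cells, under 2-fold.

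Isl1, the LIM homeobox gene that marks second heart field progenitors and is also used in stomach mesenchyme, was one of the higher genes. It had 0 to 22 UMIs per member (median 6) and 0 to 33 in the other Foxf1 cells (median 1), and was seen in 71 of 79 members (89.9%, 81.0 to 95.5%) and 91 of 174 other Foxf1 cells (52.3%); thinned to 10000 UMIs, the shares were 73.4% and 35.9%. The 17 Epcam and Cdh1 cells held it too, in 14 cases and at 93.7 CPM. It stood at 201 CPM in members, 112 CPM in Wnt2-high cells and 20.2 CPM in cells low in both. The ratio over all other Foxf1 cells was 2.75 (2.41 to 3.13); over Wnt2-high cells the log2 fold was 0.82, under 2-fold.

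Of 23 venous pole and cardiopulmonary genes, 18 had enough counts: Gata4 and Isl1 were higher, Tbx5, Tbx18, Mef2c, Nkx2-5, Hand1 and Bmp4 were lower, and the median was −0.27. This pools unlike results: over Wnt2-high cells 0 of 18 were higher and 8 lower (median −0.61), and over cells low in both 4 of 12 were higher (Gata4, Gata5, Gata6 and Isl1) and 1, Tbx5, lower (median 0.47). Tbx5, the T-box gene of atria and lung mesoderm (chr5:119832668-119885219), was at 0 in most members: the median was 0 UMIs with a highest cell of 7, against a median of 2 and a highest of 12 in the other Foxf1 cells. It was seen in 13 of 79 members (16.5%, 9.06 to 26.5%) and 131 of 174 other Foxf1 cells (75.3%, 68.2 to 81.5%), and in 2 of the 17 Epcam and Cdh1 cells (11.8%); after thinning the shares were 7.59%, 41.9% and 11.8%. With 17 such cells (1.46 to 36.4% unthinned), the members' share cannot be told apart from theirs, while the summed levels were 10.1 CPM in members and 3.23 CPM in those cells. Its sums were 10.1 CPM in members, 81.9 CPM in Wnt2-high cells and 67.4 CPM in cells low in both, and the ratio over both together was 0.133 (0.0866 to 0.196). Bmp4, a BMP ligand, was at 5.97 CPM in members and 55.0 CPM in the other Foxf1 cells, a ratio of 0.108 (0.0613 to 0.179), with 83.7 CPM in Wnt2-high cells and 15.7 CPM in cells low in both. Nkx2-5, the cardiac homeobox gene, was at 5.59 CPM in members and 67.8 CPM in the other Foxf1 cells, but at 7.26 CPM in cells low in both. Without cells that carry markers of another type its log2 fold was −0.64, against −2.78 with them.

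**Figure D3:**
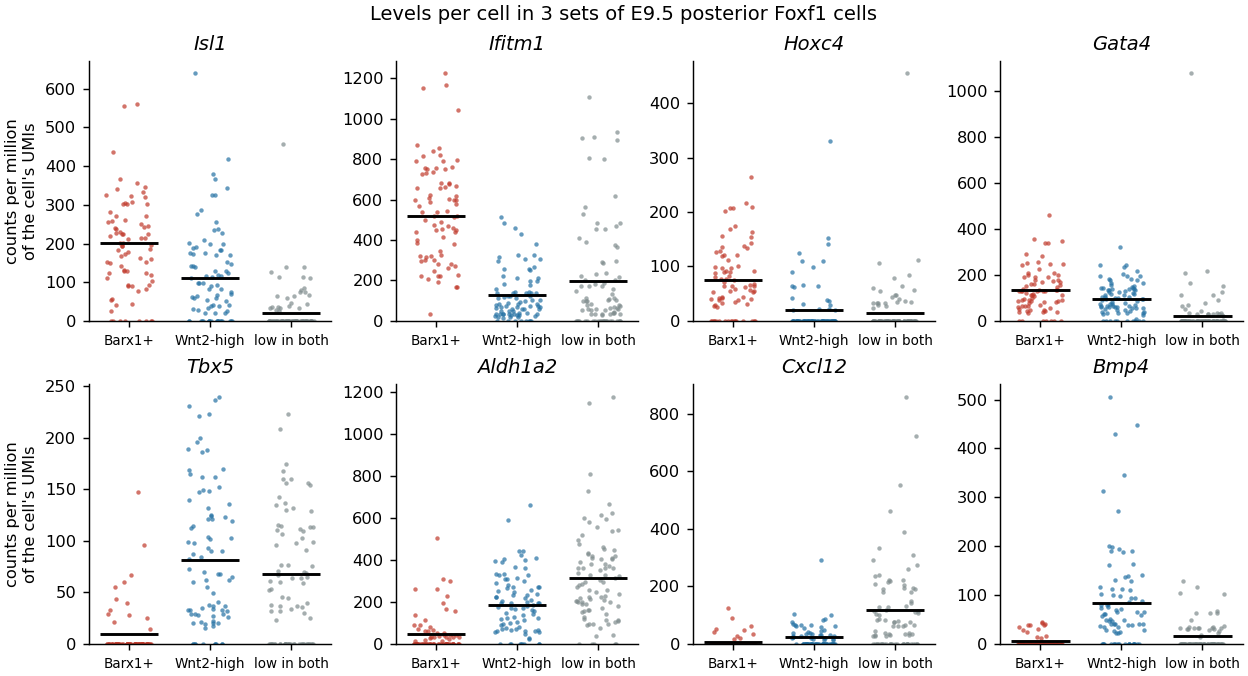
CPM of each cell's own UMIs for 8 genes in 79 Barx1-positive, 85 Wnt2-high and 89 other Foxf1 cells low in both at E9.5; each point is a cell and each bar the level summed over cells. Isl1, Ifitm1 and Hoxc4 sit highest in Barx1-positive cells (201, 516 and 75.3 CPM), and most Barx1-positive cells lie at 0 for Tbx5, Cxcl12 and Bmp4.

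Hox genes, which set position along the body axis, were higher or under 2-fold different. Of 26 listed, 23 were measured and 12 had enough counts; 3 were higher (Hoxa5, Hoxc4 and Hoxc5), 0 were lower, 9 were above 0 and the median was 0.26. Hoxc4 was seen in 62 of 79 members (78.5%) and 44 of 174 other Foxf1 cells (25.3%), in 51.9% and 11.4% after thinning, and in 12 of the 17 Epcam and Cdh1 cells (70.6%, 58.8% thinned). It was at 75.3 CPM in members, 20.03 CPM in Wnt2-high cells and 13.7 CPM in cells low in both, a ratio of 4.34 (3.40 to 5.56) over the other Foxf1 cells together. Hoxc5, its neighbour in the HoxC cluster, was at 22.004 CPM in members and 3.92 CPM in the other Foxf1 cells; how reads between these neighbours were divided is not given in the sources used here. Hoxa5, needed in lung and stomach mesenchyme of mice, was at 117 CPM in members, 40.1 CPM in Wnt2-high cells and 69.4 CPM in cells low in both. HoxB genes differed less: Hoxb4 was at 99.2 CPM in members and 75.4 CPM in the other Foxf1 cells, Hoxb5 at 23.9 and 21.1 CPM, and Hoxb1 at 90.6 and 86.2 CPM.

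Ligands of the Wnt pathway were lower or under 2-fold different. Of 15 Wnt ligands and R-spondins other than Wnt2, 7 had enough counts, 0 were higher and 5 were lower (Wnt4, Wnt5a, Wnt6, Rspo2 and Rspo3), with a median of −1.41 (−0.65 with 20 CPM added). Wnt4 was at 12.7 CPM in members and 49.4 CPM in the other Foxf1 cells, most of it in cells low in both (80.7 CPM). Wnt5a, a ligand of gut elongation, was at 1.86 CPM in members and 19.8 CPM in the other Foxf1 cells, a ratio of 0.0944 (0.0301 to 0.227). The R-spondin Rspo3, which amplifies Wnt signals, was at 15.3 and 37.3 CPM. Wnt6 was at 1.49 and 12.3 CPM, but 1 comparison cell held 62 of its 72 counts there.

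Neither of the secreted Wnt antagonists tied to Barx1 in stomach was higher by 2-fold. Sfrp1 was at 245 CPM in members and 221 CPM in the other Foxf1 cells, a ratio of 1.11 (1.01 to 1.22), and Sfrp2 at 14.9 and 28.4 CPM, a ratio of 0.525 (0.362 to 0.744). By kind of Foxf1 cell, Sfrp2 was at 22.98 CPM in Wnt2-high cells and 35.9 CPM in cells low in both, and against the last it was past 2-fold lower in members (0.415, 0.279 to 0.610). Of the 3 antagonists with enough counts 0 were higher and 1 was lower, Sfrp5, at 2.98 CPM in members, 65.1 CPM in Wnt2-high cells and 4.84 CPM in cells low in both; without cells carrying markers of another type its log2 fold was −0.71. Among 16 Wnt receptors and targets, 1 was higher and 0 lower (median −0.07): Fzd4, a Frizzled receptor, at 29.1 CPM in members and 10.0 CPM in the other Foxf1 cells.

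Hedgehog genes were near level. Of 12 with enough counts, 0 were higher, Foxf2 and Foxl1 were lower, and the median was −0.19. Ptch1, the receptor that is itself induced by the pathway, had 133 CPM in members and 161 CPM in the other Foxf1 cells (0.826, 0.730 to 0.934), and Gli1, the transcriptional target, 24.99 and 22.1 CPM (1.13, 0.828 to 1.53).

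Retinoic acid genes included some of the lowest. Of 11 with enough counts, 0 were higher and Aldh1a2, Crabp2 and Rdh10 were lower, with a median of −0.50. Aldh1a2, the enzyme that makes retinoic acid (chr9:71215789-71296243), had 0 to 24 UMIs per member (median 0) and 0 to 27 in the other Foxf1 cells (median 7). It was at 48.5 CPM in members, 188 CPM in Wnt2-high cells and 315 CPM in cells low in both, a ratio of 0.201 (0.166 to 0.240) over the other Foxf1 cells together, and in 34 of 79 members (43.0%), 160 of 174 other Foxf1 cells (92.0%) and 4 of the 17 Epcam and Cdh1 cells (23.5%). Thinned to 10000 UMIs these shares were 27.8%, 85.0% and 0%. Crabp2, which carries retinoic acid to its receptors, was at 40.3 CPM in members and 160 CPM in the other Foxf1 cells, and Rdh10, which acts one step before Aldh1a2, at 8.21 and 26.9 CPM.

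In the FGF list all 7 genes with enough counts were above 0 (median 0.39), 2 were higher and 0 were lower. Fgf10, the mesenchymal ligand of lung and stomach budding, was at 15.7 CPM in members and 4.77 CPM in the other Foxf1 cells, a ratio of 3.28 (1.99 to 5.50), and was seen in 24 of 79 members, 20 of 174 other Foxf1 cells and 0 of the 17 Epcam and Cdh1 cells. Etv1, an ETS factor induced by FGF, was at 36.5 and 9.54 CPM, a ratio of 3.83 (2.73 to 5.42). Fgf9, which missed the minimum with 40 counts in members and 5 in the other Foxf1 cells, was at 14.9 and 0.852 CPM.

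Among 17 BMP genes, 0 were higher and Bmp2, Bmp4 and Smoc2 were lower (median −0.18). The BMP target genes Id1 (255 CPM in members and 134 CPM in the other Foxf1 cells) and Id2 (762 and 535 CPM) were above 0 but under 2-fold. The 2 kinds of Foxf1 cell gave unlike results. Against cells low in both, 4 of 12 genes were higher (Id1, Id2, Msx1 and Smad7) and 0 lower, with a median of 0.59. Against Wnt2-high cells, 0 of 16 were higher and 4 lower (Bmp4, Msx2, Bambi and Smoc2), with a median of −0.40. Of 5 Notch genes, the receptor Notch2 was higher (37.3 and 14.8 CPM), and the ligand Jag1 (3.36 and 27.6 CPM) and the target Hey1 (7.46 and 24.4 CPM) were lower, with a median of 0.21.

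Genes of the matrix list were lower or under 2-fold different over the other Foxf1 cells together. Of 31 with enough counts, 0 were higher and 10 were lower, and the median was −0.28. Against Wnt2-high cells 2 of 29 were higher (Col23a1 and Gpc6) and 9 lower. Against cells low in both, 1 of 26 was higher (Tnc) and 7 lower. Ecm1 and Hmcn1, matrix genes outside the list, were higher in members, as given above. Col1a1, the fibrillar collagen I chain, was at 6.71 CPM in members and 36.1 CPM in the other Foxf1 cells, a ratio of 0.186 (0.108 to 0.301), although 1 comparison cell held 98 of its 212 counts there. Col9a1, a collagen of cartilage type, had at most 2 UMIs in a member and up to 12 in the other Foxf1 cells, at 5.97 and 49.6 CPM, a ratio of 0.120 (0.0679 to 0.199). Col2a1 was at 8.58 and 25.9 CPM, Hapln1, a hyaluronan link protein, at 5.22 and 27.1 CPM, and Spon1 at 1.49 and 18.6 CPM. Postn and Lum were lower as well (1.49 and 24.0 CPM; 0.746 and 20.4 CPM), but single comparison cells held 103 of 141 and 76 of 120 of their counts. Fibronectin, Fn1, was at 79.1 CPM in members and 93.3 CPM in the other Foxf1 cells, and Col3a1 at 68.3 and 85.0 CPM. Sparcl1, a matricellular protein outside the list, was seen in 4 of 79 members, 102 of 174 other Foxf1 cells and 0 of the 17 Epcam and Cdh1 cells, at 4.48 CPM in members and 68.3 CPM in the other Foxf1 cells, a ratio of 0.0655 (0.0336 to 0.116).

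Of 20 guidance and adhesion genes, 4 were lower and 0 higher (median −0.47). The chemokine Cxcl12 had 0 to 7 UMIs per member (median 0) and 0 to 26 in the other Foxf1 cells (median 1), at 7.83 CPM in members, 23.0 CPM in Wnt2-high cells and 117 CPM in cells low in both. The cadherin Cdh11 was at 15.7 and 55.9 CPM in members and the other Foxf1 cells, the netrin receptor Unc5c at 4.48 and 28.8 CPM and Efnb1 at 12.3 and 33.7 CPM. Of 5 pharyngeal genes, 4 were lower (median −1.496): Irx3 (4.10 and 34.1 CPM), Tbx1 (1.12 and 12.3 CPM), Ebf1 (1.86 and 14.99 CPM) and Dlk1 (171 and 375 CPM). Against cells low in both these 4 were lower, and against Wnt2-high cells Irx3 alone of 3 with enough counts. In the list of insulin-like growth factor and imprinted genes, Igfbp3 was higher and Igfbp5 (30.6 and 124 CPM) and Dlk1 were lower among 14, with a median of −0.15. Cldn11, a tight junction protein, was at 3.36 CPM in members, 8.84 CPM in Wnt2-high cells and 141 CPM in cells low in both.

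Of 7 smooth muscle genes, Acta2, Tagln and Tpm1 were lower, 0 were higher and the median was −0.99. Acta2, smooth muscle actin, had at most 3 UMIs in a member and up to 177 in another Foxf1 cell, with medians of 0 and 1 UMI, at 16.0 CPM in members and 182 CPM in the other Foxf1 cells. Without cells carrying markers of another type, its log2 fold was −0.20 and the list median −0.24. Tagln (4.48 and 47.7 CPM) stayed past 2-fold in every alternative. Actc1, cardiac actin, was at 24.6 CPM in members, 211 CPM in Wnt2-high cells and 48.4 CPM in cells low in both. Leaving out the 18 comparison cells that exceeded every member in summed cardiomyocyte markers, 17 of them Wnt2-high, gave a log2 fold of −0.44. Actc1 is itself among those markers, so leaving out the comparison cells richest in them was bound to lower its comparison level. Its smaller fold is a description only. Slc2a3, a glucose transporter, was at 5.97 and 56.4 CPM, but 1 comparison cell held 252 of its 331 counts, and without that cell its log2 fold was −0.77. The part of contractile cells in these differences was not tested beyond those values.

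The members differed among themselves in genes other than Barx1. They were divided at the median of Barx1 per UMI into 40 cells with more and 39 with less (Barx1 at 569 and 184 CPM, which the division sets; median depth 32478.5 and 29090 UMIs). Aldh1a2 was at 17.7 CPM in the cells with more Barx1 and 89.3 CPM in those with less, a ratio of 0.198 (0.124 to 0.305). Tbx5 was at 3.93 and 18.2 CPM (0.216, 0.0712 to 0.552), Rspo3 at 5.89 and 27.7 CPM, Wnt4 at 5.24 and 22.5 CPM, Hand1 at 1.96 and 17.3 CPM and Col1a1 at 2.62 and 12.1 CPM. Nkx6-1 had 0 counts in the cells with more Barx1 and 10 in those with less, 7 of them in 1 cell. Ptch1 was at 111 and 162 CPM, a ratio of 0.686 (0.554 to 0.849). Isl1 went the other way, at 243 and 144 CPM (1.69, 1.40 to 2.04), as did Sorbs2 (24.9 and 8.67 CPM).

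Both the called genes and this division come from Barx1, so their counts are a description. Of the 129 genes lower in members than in the other Foxf1 cells, 18 were lower and 2 (Igfbp5 and Mbnl3) higher in the cells with more Barx1, with an interval that excluded 1. Of the 37 genes higher in members, 6 were higher (Prnp, Ccnd2, Phlda2, Sorbs2, Isl1 and Dpysl3) and 3 lower (Hmcn1, Shisa3 and Akap5). Over all 8818 genes, 4.6% were higher and 4.72% lower by the same division. A division by Barx1 UMIs instead, 41 cells with 10 or more against 38 with fewer, gave 22 lower and 4 higher of the 129, and 9 higher and 4 lower of the 37, beside 5.32% higher and 5.65% lower over all genes, but these cells also differed in depth (medians of 35724 and 25642.5 UMIs). Over the 79 cells, which share 1 library and differ in depth, Spearman's rho with Barx1 per UMI was 0.39 for Isl1, 0.39 for Sorbs2, −0.45 for Rspo3, −0.36 for Col9a1, −0.35 for Aldh1a2 and −0.28 for Tbx5, but 0.03 for Hoxc4 and −0.06 for Ifitm1. These are descriptions of the cells and have no test.

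**Figure D4:**
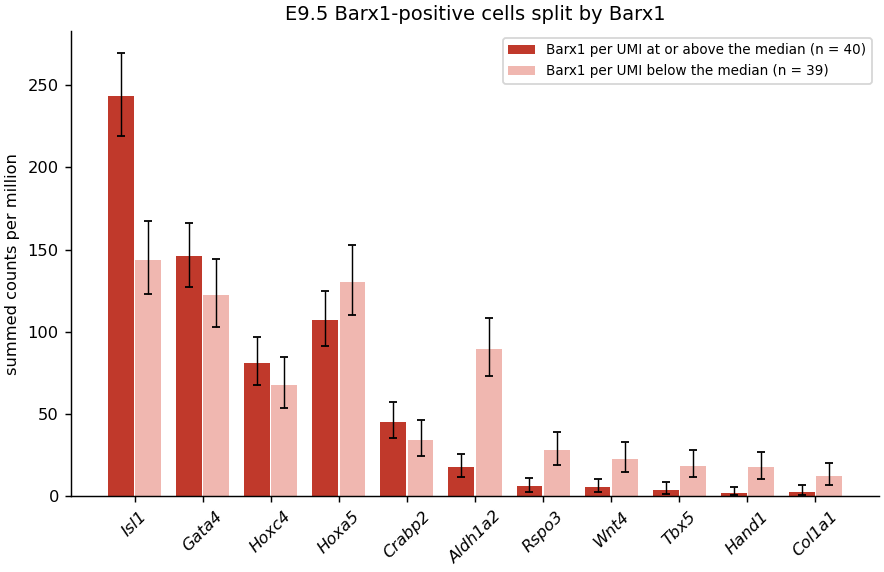
Summed CPM of 11 genes in the 40 Barx1-positive cells with Barx1 per UMI at or above the median and the 39 below it, with exact 95% Poisson intervals of the counts. Isl1 is higher in the cells with more Barx1 (243 and 144 CPM), Aldh1a2 is lower (17.7 and 89.3 CPM), and Gata4, Hoxc4 and Hoxa5 have overlapping intervals.

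Of the 13 members with a Tbx5 UMI, 10 also had Aldh1a2, which was seen in 34 of all 79, while 12 had Isl1 and 11 Hoxc4, seen in 71 and 62 of all 79. Isl1 and Hoxc4 were seen together in 55 members, and 5 members had both a Wnt2 and a Tbx5 UMI. Among cells low in both, the 12 with a single Barx1 UMI (median depth 18584.5 UMIs) had 428 CPM of Ifitm1, 44.6 CPM of Hoxc4, 53.5 CPM of Shisa3 and 196 CPM of Aldh1a2, and the 77 with none (median depth 30208 UMIs) had 174, 10.7, 13.3 and 327 CPM of the same genes in that order. Igfbp3 was low in both sets, at 4.46 and 3.55 CPM, as were Ecm1 (4.46 and 3.99 CPM), Etv1 (4.46 and 3.99 CPM) and Ntf3 (4.46 and 4.44 CPM). Counts in the 12 cells were few for most of these genes: 10 of Hoxc4 and 12 of Shisa3, each in 5 cells. Ifitm1 had 96 in 9 cells and Aldh1a2 44 in 10 cells. Igfbp3, Ecm1, Etv1 and Ntf3 had 1 count each there, and Phlda2 and Hmcn1 had 0. For Ifitm1, Hoxc4 and Aldh1a2 the 12 cells lay between the 77 cells and the members (516, 75.3 and 48.5 CPM in members). For Shisa3 they lay above the members (45.9 CPM). The genes with 0 or 1 count there cannot place them, and where the 12 cells lie as a set was not tested. After thinning to 10000 UMIs, the genes with the highest variance relative to their mean among members included Actb (15.9), Meg3 (11.5), Malat1 (10.3), Hspa8 (8.81) and Phlda2 (6.60).

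The same UMI rule found 232 of 560 posterior cells at E10.5 (41.4%, 37.3 to 45.6%), together with 7 of 31 outflow tract, 1 of 45 anterior and 8 of 331 middle cells. Depth was far lower there, with a median of 5706.5 UMIs per Barx1-positive cell, so the thresholds are not the same level and the stages are set side by side without a comparison. Of these 232 cells, 123 had 2 or more Foxf1 UMIs. The 232 cells were set against 106 other Foxf1 cells, of which 4 were Wnt2-high and 102 low in both. At E9.5 the other Foxf1 cells were 85 Wnt2-high and 89 low in both. The comparison groups of the 2 stages thus differ in make-up as well as depth, which limits every gene set side by side below. Of 5261 genes with enough counts, 55 were higher (1.05%) and 33 lower (0.627%) in Barx1-positive cells, 1.67% in either direction.

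Of the 37 genes higher at E9.5, 18 had enough counts at E10.5: 17 were above 0, 10 were past 2-fold with an interval above 1, and the median log2 fold was 1.22. These 10 were Prnp, 1110032F04Rik, Ccnd2, Ifitm1, Sorbs2, Pdlim3, Tox3, Isl1, Etv1 and Sema6a. Of the 129 lower genes, 51 had enough counts: 44 were below 0, 14 were past 2-fold, 3 were past 2-fold the other way, and the median was −0.60. The 14 were Msc, Igfbp5, Prrx2, Mpped2, Npnt, Unc5c, Wnt4, Limch1, Nkx6-1, Sparcl1, Tbx5, Foxd1, Arl4a and Pgf. The median E10.5 log2 fold over all genes with enough counts was 0.003. With E10.5 members required to hold 2 or more Foxf1 UMIs, 7 higher and 13 lower genes had the same call as at E9.5, and 18 and 48 the same direction. Starting from E10.5, 47 of the 55 higher genes had enough counts at E9.5. There 30 were above 0 and 17 below, with 10 called higher, 3 called lower and a median of 0.13. Of the 33 lower genes, 32 had enough counts at E9.5. There 26 were below 0 and 6 above, with 14 called lower and a median of −0.83.

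Isl1 was at 214 CPM in Barx1-positive cells and 69.9 CPM in the other Foxf1 cells at E10.5, a ratio of 3.06 (2.22 to 4.31), and Tbx5 at 19.8 and 91.1 CPM, a ratio of 0.217 (0.134 to 0.344). Ifitm1 (458 and 122 CPM) and Ccnd2 (1027 and 403 CPM) were higher at E10.5 too. Sparcl1 was at 25.04 and 265 CPM, a ratio of 0.0945 (0.0645 to 0.135). Other genes past 2-fold at E9.5 were under it at E10.5: Hoxc4 was at 45.5 and 47.2 CPM at E10.5 (0.964, 0.616 to 1.54), Aldh1a2 at 104 and 127 CPM (0.821, 0.622 to 1.09) and Gata4 at 27.7 and 22.8 CPM (1.22, 0.651 to 2.41). Igfbp3 had 29 counts in Barx1-positive cells and 0 in the other Foxf1 cells, under the minimum. Sfrp2, past 2-fold lower at E9.5 against cells low in both alone, was at 37.6 CPM in Barx1-positive cells and 211 CPM in the other Foxf1 cells at E10.5, a ratio of 0.178 (0.128 to 0.244).

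**Figure D5:**
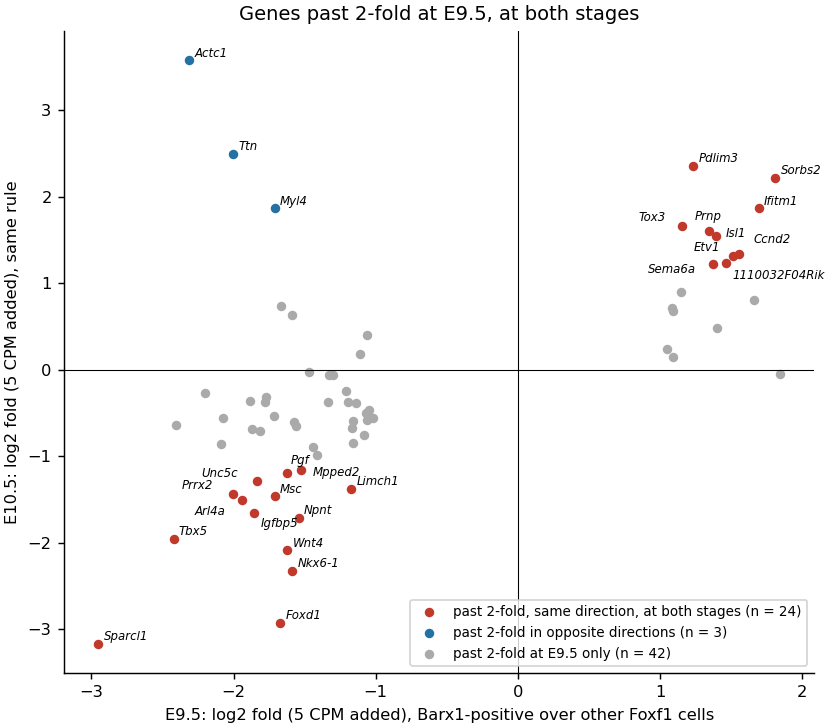
Log2 fold (5 CPM added) of Barx1-positive over other Foxf1 cells at E9.5 (horizontal) and E10.5 (vertical) for the genes higher or lower at E9.5 with enough counts at E10.5. Past 2-fold with an interval excluding 1 in the same direction at both stages were 24 genes, 10 higher and 14 lower, while Actc1, Myl4 and Ttn lie in the opposite corner.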

How the data were processed

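The authors deposited 1 table of UMI counts, not normalized, for each of the 2 samples, with genes in rows and cells in columns. Per the submitters' processing notes they were made with Cell Ranger 3.0 and Seurat on mm10; the annotation version is not given in the sources used here. Of the symbols, 98.9% matched GENCODE vM21. Groups came from the labels' stage and the barcode suffix. No cell was removed; doublets were marked by Scrublet (scanpy 1.11.5, 20 components) and left out in an alternative.

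Counts were summed over the cells of a group and scaled to CPM (Python 3.11.15, numpy 2.4.6, pandas 2.3.3, scipy 1.17.1). Log2 folds carry 5 CPM on each side, which shrinks the folds of low genes; ratios carry none and have exact conditional (Clopper-Pearson) 95% intervals. With 1 library, intervals cover counting error only, and differences between embryos are outside them. The calling script was run on simulated Poisson counts drawn from the pooled profile of both groups. That setting has no spread between cells beyond counting error and the changes put in, so it cannot show how calls behave with such spread. Barx1, Wnt2 and Foxf1 were left out of the counts of genes. Shares of cells are unthinned and thinned to 10000 UMIs, which left out 7 comparison cells.

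Named genes were the 15 with the largest and the 15 with the smallest log2 fold among those with 50 or more counts, a UMI in at least 20% of cells of the higher group, an interval excluding 1 and the same direction in thinned shares, besides members of 18 gene lists. Fgf9, Prrx2 and other genes outside this rule, and the 17 Epcam and Cdh1 cells, were chosen after their values were seen. The members and lists were chosen with earlier results of these data known. Alternatives changed the UMI limits, the comparison cells, the scaling, the cell weights, the depth, the CPM added and the minimum count.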

Additional observations from a re-analysis of the deposited data

Results flagged for a closer look

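For 3 contractile genes the log2 folds of the Barx1-positive cells over the other Foxf1 cells ran in opposite directions at the 2 stages. Actc1 was at −2.32 at E9.5 and 3.57 at E10.5, Myl4 at −1.71 and 1.87, and Ttn at −2.001 and 2.49. With 1 sample per stage the difference between stages was not tested. At E10.5, 1 of the 232 Barx1-positive cells held 166 of 171 Actc1 counts, 98 of 110 Myl4 counts and 59 of 63 Ttn counts. Without that cell the E10.5 log2 folds were −0.25, −0.71 and −0.11 in the same order.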

How the results depend on the processing

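The 37 higher genes became 23 with members at 0 Wnt2 UMIs and the other 24 members moved to the comparison (22 shared), 20 with cells thinned to 10000 UMIs (13 shared), 61 with 1 CPM added and 8 with 20 CPM added; the other settings gave 33 to 48. The 129 lower genes became 209 against cells with 1 or more Foxf1 UMIs, 303 against all other posterior cells (111 shared), 65 thinned (53 shared), 77 without cells carrying markers of another type (62 shared), 197 with 1 CPM and 40 with 20 CPM added; the other settings chosen beforehand gave 92 to 136. Thinning left 5403 genes to compare and removing cells with other markers left 45 members; other causes were not tested. Chosen after seeing the data, leaving out the 18 comparison cells richest in cardiomyocyte markers gave 40 and 102, and leaving those 24 members out of both groups gave 32 and 127, with Etv1 at 1.39, against 0.99 when they were moved. Requiring 2 Foxf1 UMIs of members changed nothing, since all had them.

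None of the 30 named genes changed direction in any alternative, and 18 stayed past 2-fold in all of them. The 30 were chosen for extreme folds in these same cells and for their direction in thinned shares. Their kept direction is therefore no independent check. Under 2-fold with 20 CPM added were 1110032F04Rik (0.74), Adamts18 (0.69), Etv1 (0.94), Hmcn1 (0.80), Hoxc5 (0.81), Ntf3 (0.83) and Sorbs2 (0.82, and 0.92 against all other posterior cells). Slc2a3 was at −0.31 in cells between the quartiles of depth and −0.02 without cells carrying markers of another type. Actc1 was at −0.64 without those cells, but it is itself among the markers by which they were removed. No paired analysis was possible because each stage is 1 sample and the labels give no replicate numbers. The single library limits every value here: counting intervals describe these cells, not embryos.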
